A study of Mus musculus with 4 samples.

Results

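The 10 genes described here mark the identity of epithelial cells: the adhesion and trafficking genes Cdh1, Epcam and Rab25, the splicing regulators Esrp1 and Esrp2, the transcription factors Grhl2, Ovol1 and Elf3, and the membrane protease St14 with its inhibitor Spint1. They were taken by gene symbol from the 24411 genes of each library, and all 10 were found. All 10 were among the 11167 genes that passed the filter on low values (at least 1 TPM, a transcript abundance scaled for length and library size, in at least 2 libraries), and each was above 1 TPM in all 4 libraries.

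The libraries were 4 poly(A) RNA-seq profiles of 4T1, an established mouse mammary carcinoma line that grows as an epithelial culture. The control group held control 1 and control 2, both with the genotype label control. The protocols name an unmodified 4T1 culture and 4T1 cells carrying a Cas9 lentivirus selected with blasticidin as the sources that are not knockouts, and the titles do not say which control is which. The CD95ko group held CD95ko 1 and CD95ko 2, which came from Cas9-expressing cells transfected with a pair of guide RNAs against exon 9 of the gene for CD95 (Fas), the receptor for Fas ligand. Each of them was grown from 1 sorted cell and gave 1 library, so differences between clones and the effect of the knockout cannot be told apart. Carrying Cas9, selection, transfection and growth from 1 cell may also differ between the labels. These cannot be told apart from the knockout either.

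Epithelial cells are held together by adherens junctions, in which E-cadherin (Cdh1) binds E-cadherin on the neighbouring cell and is tied to actin through catenins. Grainyhead-like and Ovo-like transcription factors keep this state in place, and the Esrp proteins direct the epithelial splice forms of adhesion and cytoskeletal genes. When cells move towards a mesenchymal state, factors of the Zeb, Snail and Twist families bind E-box sequences in epithelial promoters and silence them, while the intermediate filament protein vimentin becomes abundant.

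Fas, the targeted gene, was listed at 49.4 TPM in control 1, 39.2 TPM in control 2, 15.8 TPM in CD95ko 1 and 49.5 TPM in CD95ko 2. The level in CD95ko 2 was thus not below the controls, and gene-level TPM does not show exon 9 separately. Every direction below refers to the libraries as labelled. Each library listed between 11193 and 12010 genes above 0, and the median TPM of the tested genes lay between 16.3 and 22.9. Read numbers are not given by TPM, so the depth behind each value is unknown. The epithelial label was checked against Krt7, Krt8, Krt18, Krt19, Cldn3 and Cldn4. Their summed level was 6253 TPM in control 1, 5872 TPM in control 2, 9309 TPM in CD95ko 1 and 13330 TPM in CD95ko 2. Cldn3 was lower in both CD95ko-labelled libraries (441 and 336 TPM) than in both controls (671 and 615 TPM). The other 5 were higher in both CD95ko-labelled libraries than in both controls, beside 29.2% of all genes tested. Of 8 leucocyte markers, 7 were at 0 in all 4 libraries, Ptprc among them, and the list summed to between 0 and 22.2 TPM, all of it Csf1r (1.22 TPM in control 1, 0 in control 2, 22.2 TPM in CD95ko 1 and 5.07 TPM in CD95ko 2). The part of Csf1r in the results below was not tested. Endothelial markers summed to between 0 and 0.28 TPM with 4 of 5 at 0 throughout, Pecam1 and Cdh5 among them. Fibroblast markers summed to between 0.97 and 4.52 TPM with 4 of 7 at 0 throughout, Dcn and Lum among them.

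The promoters of the members are shown because the factors that hold or silence the epithelial state are known to act there. RefSeq windows on GRCm38.p6 were matched by symbol for 4 of the 10 members. The 250 bases before each start were searched on both strands for 3 motifs: CACCTG, an E-box bound by Zeb and Snail factors; ACCGGT, the core of the Grainyhead-like site, which reads the same on both strands; and CCGTTA, an Ovo-like site. The motifs do not overlap in these windows, and ACCGGT was chosen after the Epcam sequence had been seen. Each sequence is printed 5′ to 3′ in the direction of transcription, with CACCTG (or its reverse complement CAGGTG) and ACCGGT in capitals. Only bases before the gene span of GENCODE M21 are printed: chr17:87635729-87635978 (forward strand) for Epcam, chr3:88548301-88548529 (reverse) for Rab25, chr1:135258569-135258722 (reverse) for Elf3 and chr2:119237110-119237359 (forward) for Spint1.
Epcam: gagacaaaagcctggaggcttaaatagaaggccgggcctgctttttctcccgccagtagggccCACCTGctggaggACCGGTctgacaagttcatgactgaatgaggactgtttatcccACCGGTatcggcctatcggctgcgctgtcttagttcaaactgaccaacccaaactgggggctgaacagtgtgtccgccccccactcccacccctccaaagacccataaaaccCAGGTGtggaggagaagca
Rab25: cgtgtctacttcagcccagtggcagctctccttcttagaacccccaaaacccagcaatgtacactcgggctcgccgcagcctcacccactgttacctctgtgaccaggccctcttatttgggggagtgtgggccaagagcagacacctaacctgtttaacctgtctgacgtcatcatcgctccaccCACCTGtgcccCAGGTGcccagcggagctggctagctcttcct
Elf3: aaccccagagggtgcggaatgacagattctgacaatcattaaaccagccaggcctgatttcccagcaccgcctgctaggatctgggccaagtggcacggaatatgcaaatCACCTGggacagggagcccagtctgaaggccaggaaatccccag
Spint1: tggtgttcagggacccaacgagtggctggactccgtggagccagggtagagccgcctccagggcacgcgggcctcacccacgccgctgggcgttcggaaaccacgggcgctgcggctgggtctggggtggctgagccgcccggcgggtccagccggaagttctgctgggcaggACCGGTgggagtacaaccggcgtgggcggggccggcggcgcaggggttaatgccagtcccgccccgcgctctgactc

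Epcam held 2 E-boxes, at bases -187 to -182 and -19 to -14 before the RefSeq start, and 2 ACCGGT cores, at -174 to -169 and -131 to -126. Rab25 held 2 E-boxes, at -64 to -59 and -53 to -48, and Elf3 held 1, at -140 to -135. These positions also count from the RefSeq start, not from the last printed base. The printed parts of Rab25 (229 of 250 bases) and Elf3 (154 of 250 bases) end short of that start. Spint1 held no CACCTG in this window and 1 ACCGGT core, at -77 to -72. None of the 4 windows held CCGTTA. Among all 32817 windows of this length in the table, 17.2% held CACCTG, 1.86% held ACCGGT and 2.17% held CCGTTA. These matches describe the letters only, and no binding was measured.

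Epcam and Rab25 had the widest separation between the labels, with means over the CD95ko-labelled libraries 3.18 and 6.20 times the control means. Esrp1 had the narrowest, at 1.02 times. With CD95ko-labelled libraries set against controls, none of the 10 members passed an adjusted p of 0.05 in limma, where 6 of 11167 genes did (0.0537%). At an unadjusted p under 0.05, 3 members were higher (Epcam, Rab25 and Spint1) and 0 were lower. Of all tested genes, 9.25% were higher and 5.68% were lower at this p. For 7 members both CD95ko-labelled libraries lay above both controls (Cdh1, Epcam, Rab25, Esrp2, Elf3, St14 and Spint1), against 29.2% of all tested genes, and for Esrp1, Grhl2 and Ovol1 the groups overlapped. An exact permutation test of 1 gene over 4 libraries gives a two-sided p of 0.333 at the lowest, so only limma's model gives smaller values. All estimates below are differences on the log2(TPM + 1) scale, which understates changes of low genes. All 10 estimates were above 0 in the fit as reported, beside 57.4% of all genes tested, but Esrp1 turned to -0.063 under quantile normalization, -0.14 under scaling by median ratios and -0.090 without CD95ko 2, and Ovol1 to -0.036 without CD95ko 1. The median difference over the members was 0.68, beside 0.13 over all genes tested. Scaling by median ratios moved the median over all genes to -0.02 and that over the members to 0.53.

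**Figure D1:**
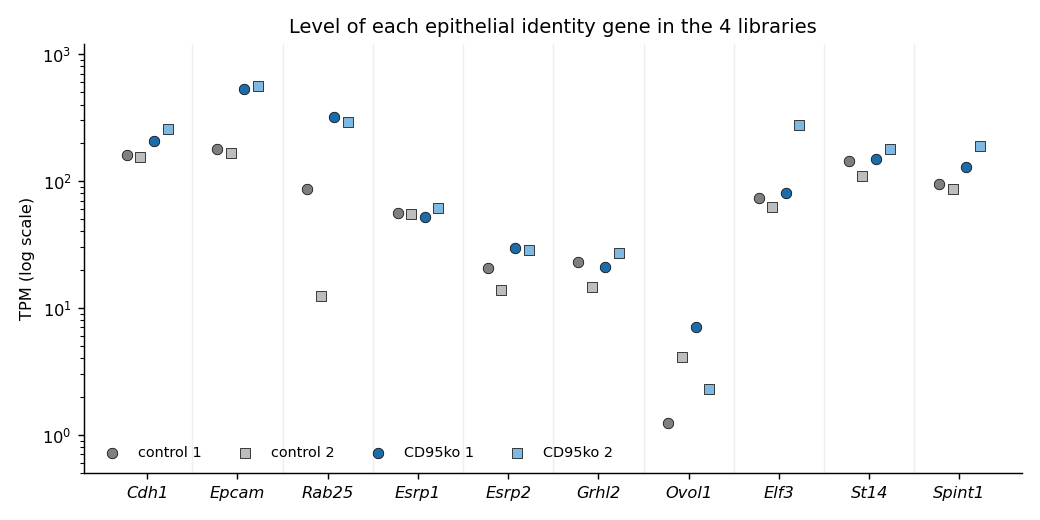
TPM (log scale) of the 10 epithelial identity genes, with 1 point for each of the 4 libraries and no error bars. Epcam is highest in every library, between 166 and 565 TPM, and Ovol1 is lowest, between 1.24 and 7.11 TPM.

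TPM is scaled by transcript length, so levels of different genes can be set side by side. Epcam had the highest level of the members and Ovol1 the lowest in each of the 4 libraries. In both controls Epcam was followed by Cdh1, St14 and Spint1. In both CD95ko-labelled libraries Rab25 stood second, after ranking the fifth of the members in control 1 and the ninth in control 2. The summed level of the members was 836 TPM in control 1, 676 TPM in control 2, 1525 TPM in CD95ko 1 and 1872 TPM in CD95ko 2. Epcam and Rab25 made up 67.1% of the difference in the mean sum between the groups.

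Epcam encodes an adhesion molecule of epithelial cell surfaces that is widely used to identify carcinoma cells. It was 179 TPM in control 1, 166 TPM in control 2, 532 TPM in CD95ko 1 and 565 TPM in CD95ko 2. The libraries of each label lay close together and the groups were well separated, with means of 172 ± 9.02 TPM for the controls and 548 ± 23.5 TPM for the CD95ko label (SD, n = 2). The difference was 1.67 ± 0.28 (SE) on the log2 scale, with a 95% interval from 1.03 to 2.30. It ranked as number 35 of the 11167 genes by p (limma adjusted p = 0.0676). It passed 0.05 with robust eBayes (adjusted p = 0.0407), which called 52 genes or 0.466% of those tested, and among genes with a mean TPM of at least 5 (adjusted p = 0.0426). Over the 8 alternatives that kept all 4 libraries the adjusted p ranged from 0.0407 to 0.222.

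Cdh1 encodes E-cadherin, the core of the adherens junction. It was 159 TPM in control 1, 154 TPM in control 2, 205 TPM in CD95ko 1 and 255 TPM in CD95ko 2. The groups did not overlap, and the mean of the CD95ko-labelled libraries was 1.47 times that of the controls. The difference of 0.54 ± 0.30 (SE, log2) had a 95% interval from -0.13 to 1.22 and did not pass the test (limma adjusted p = 0.428). Cdh1 and Epcam were nearly level in the controls, with a ratio of Epcam to Cdh1 TPM of 1.12 in control 1 and 1.08 in control 2. The ratio was 2.59 in CD95ko 1 and 2.22 in CD95ko 2.

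Rab25 encodes a small GTPase of the Rab11 family that recycles membrane proteins in epithelial cells. It was 86.2 TPM in control 1, 12.3 TPM in control 2, 321 TPM in CD95ko 1 and 290 TPM in CD95ko 2. Both CD95ko-labelled libraries were above both controls, and control 2 was the low library. The controls differed from each other 6.99-fold and the CD95ko-labelled libraries 1.10-fold. The difference was 3.17 ± 0.72 (SE, log2), with a 95% interval from 1.54 to 4.79 (limma adjusted p = 0.137). It was 4.52 without control 1 and 1.81 without control 2, so its size rested on the control used. Among the members it was the widest difference and also the one with the widest spread between controls.

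**Figure D2:**
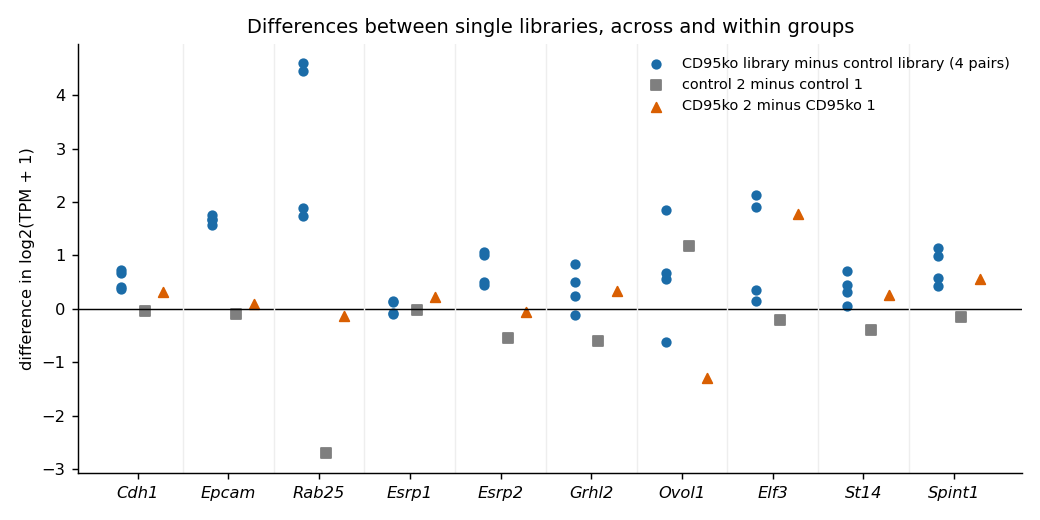
Differences in log2(TPM + 1) between single libraries for each member, with the 4 CD95ko-minus-control pairs as circles, control 2 minus control 1 as squares and CD95ko 2 minus CD95ko 1 as triangles. The 4 circles of Epcam lie between 1.57 and 1.76, while those of Rab25 lie between 1.74 and 4.59 and its control pair is at -2.71.

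Esrp1 and Esrp2 encode the epithelial splicing regulatory proteins, which are RNA-binding proteins of related sequence. Esrp1 was 56.0 TPM in control 1, 54.9 TPM in control 2, 52.0 TPM in CD95ko 1 and 61.0 TPM in CD95ko 2. These 4 values overlapped between the groups, and the difference was 0.02 ± 0.35 (SE, log2), with a 95% interval from -0.76 to 0.81 (limma adjusted p = 0.985). Esrp2 was 20.7 TPM in control 1, 13.9 TPM in control 2, 29.8 TPM in CD95ko 1 and 28.7 TPM in CD95ko 2. Its groups did not overlap, but the difference of 0.75 ± 0.43 (SE, log2; 95% interval -0.23 to 1.74) did not pass the test (limma adjusted p = 0.451). Esrp1 was the more abundant of the pair in each of the 4 libraries. The ratio of Esrp1 to Esrp2 TPM was 2.70 in control 1 and 3.96 in control 2, against 1.74 in CD95ko 1 and 2.12 in CD95ko 2. Splice forms were not analysed here, since the values are per gene.

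Grhl2 encodes a Grainyhead-like factor that activates Cdh1 and other junction genes. It was 22.8 TPM in control 1, 14.6 TPM in control 2, 21.0 TPM in CD95ko 1 and 26.9 TPM in CD95ko 2. CD95ko 1 lay between the controls, and the difference of 0.37 ± 0.45 (SE, log2; 95% interval -0.66 to 1.39) did not pass the test (limma adjusted p = 0.742). Ovol1 encodes a zinc finger repressor that opposes mesenchymal genes. It was 1.24 TPM in control 1, 4.08 TPM in control 2, 7.11 TPM in CD95ko 1 and 2.29 TPM in CD95ko 2. The highest and the third highest of these values were in the CD95ko-labelled libraries, so the groups overlapped. The difference of 0.61 ± 0.73 (SE, log2; 95% interval -1.04 to 2.27) did not pass the test (limma adjusted p = 0.731), and without CD95ko 1 it was -0.036. The ratio of Grhl2 to Ovol1 TPM was 18.4 in control 1, 3.57 in control 2, 2.96 in CD95ko 1 and 11.7 in CD95ko 2, with CD95ko 2 between the controls.

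Elf3 encodes an epithelium-specific factor of the Ets family. It was 73.1 TPM in control 1, 62.7 TPM in control 2, 80.4 TPM in CD95ko 1 and 276 TPM in CD95ko 2. CD95ko 2 stood apart from the other 3 libraries, and CD95ko 1 was 1.10 times the higher control. The difference of 1.13 ± 0.53 (SE, log2; 95% interval -0.06 to 2.32) did not pass the test (limma adjusted p = 0.358). It was 2.01 without CD95ko 1 and 0.25 without CD95ko 2, so CD95ko 2 decided its size. In both of these fits the lone CD95ko-labelled library is assumed to vary like the controls.

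St14 encodes matriptase, a serine protease anchored in the membrane of epithelial cells, and Spint1 encodes HAI-1, its Kunitz-type inhibitor. St14 was 143 TPM in control 1, 108 TPM in control 2, 148 TPM in CD95ko 1 and 177 TPM in CD95ko 2. CD95ko 1 exceeded control 1 by a factor of only 1.04, and the difference of 0.38 ± 0.32 (SE, log2; 95% interval -0.34 to 1.10) did not pass the test (limma adjusted p = 0.604). Spint1 was 95.3 TPM in control 1, 85.7 TPM in control 2, 129 TPM in CD95ko 1 and 190 TPM in CD95ko 2. The controls were close together and both CD95ko-labelled libraries lay above them, with a difference of 0.78 ± 0.33 (SE, log2; 95% interval 0.03 to 1.54; limma adjusted p = 0.318). The ratio of protease to inhibitor, St14 to Spint1 TPM, was 1.497 in control 1, 1.26 in control 2, 1.15 in CD95ko 1 and 0.935 in CD95ko 2. Against Spint2, which encodes the related inhibitor HAI-2, the ratio was 0.269 in control 1, 0.237 in control 2, 0.338 in CD95ko 1 and 0.237 in CD95ko 2. These values overlapped between the groups, and Spint2 was above St14 in all 4 libraries.

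**Figure D3:**
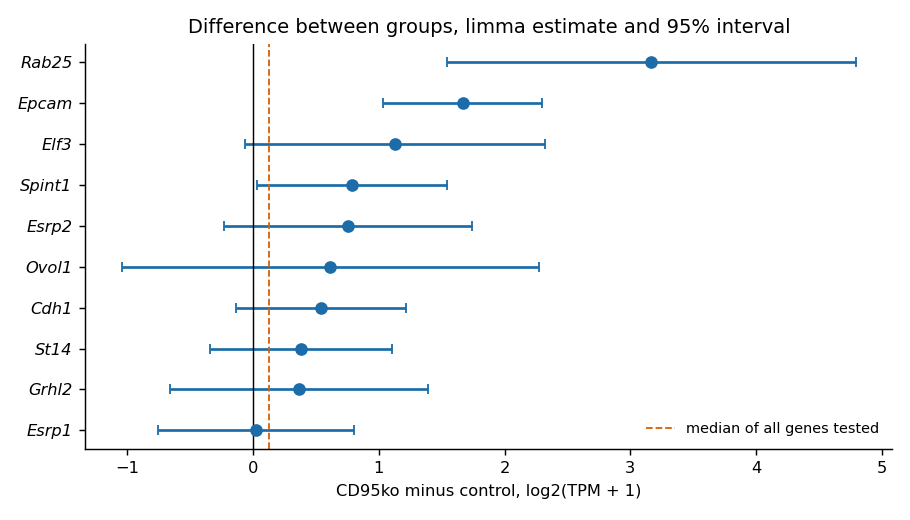
Difference between groups for each member in log2(TPM + 1), CD95ko minus control, as the limma estimate with its 95% interval. The dashed line is the median of all genes tested (0.13), and the intervals of Rab25, Epcam and Spint1 lie above 0.

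Between libraries of the same label the members also differed. From control 1 to control 2, 9 of 10 were lower, near the 75.9% of all genes tested that were lower, with a median difference of -0.18 beside -0.35 over all genes. Differences over 1 on the log2 scale within the controls were seen for Rab25 (-2.71) and Ovol1 (1.18), 2 of 10 members beside 14.4% of all genes. From CD95ko 1 to CD95ko 2, 7 of 10 were higher beside 44.1% of all genes, with a median of 0.24 beside -0.10. Elf3 (1.77) and Ovol1 (-1.30) differed by more than 1 in that pair, 2 of 10 members beside 23.3% of all genes. The profile over the 4 libraries that lay nearest to the mean of the members was that of Esrp2 (root mean square distance 0.15 on the log2 scale), and those farthest from it were Ovol1 (0.78) and Rab25 (1.39).

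The members lie on 9 chromosomes, and Esrp2 and Cdh1 share chromosome 8 (GRCm38, GENCODE M21). Esrp2 runs from 106130319 to 106136974 on the reverse strand and Cdh1 from 106603351 to 106670246 on the forward strand. Exons of Esrp1, Esrp2, Grhl2, Ovol1 and Elf3 overlap exons of genes on the opposite strand. Whether the authors' quantification used strand is not given in the sources used here, so reads of those neighbours cannot be told apart from these 5 members. Cdh1, Epcam, Rab25, St14 and Spint1 have no such overlap.

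The adhesion partners of the members had the highest median difference of the 7 lists of related genes. Of 11 genes that build or accompany the adherens junction (several found under older symbols in the files, such as Pvrl2 for Nectin2), 10 were tested and none passed an adjusted p of 0.05. At an unadjusted p under 0.05, 4 of the 10 were higher and 1 was lower, beside 9.25% and 5.68% of all genes tested, and the median difference was 0.92. Ctnna1, which encodes α-catenin and ties cadherin complexes to actin, was 128 and 96.2 TPM in the controls and 256 and 313 TPM in the CD95ko-labelled libraries (difference 1.34 ± 0.31 SE, log2; limma adjusted p = 0.144). Jup, which encodes plakoglobin, was 74.9 and 49.5 TPM in the controls and 132 and 220 TPM in the CD95ko-labelled libraries (difference 1.47 ± 0.38 SE; adjusted p = 0.159). Ctnnb1 (β-catenin) was also among those higher, and the 1 lower was Nectin2, at 135 and 186 TPM in the controls and 31.4 and 115 TPM in the CD95ko-labelled libraries (difference -1.38 ± 0.55 SE; adjusted p = 0.284). Ctnnb1 and Nectin2 were named after their values had been seen.

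Of 6 relatives and partners of Rab25, 6 were tested, none passed the adjusted threshold, and the median difference was 0.45. Rab17, another epithelial Rab GTPase, was 2.42 TPM in control 1, 1.77 TPM in control 2, 5.51 TPM in CD95ko 1 and 29.0 TPM in CD95ko 2 (difference 2.18 ± 0.77 SE; limma adjusted p = 0.245). Rab11b differed by 0.74 ± 0.45 (SE) and Rab11fip5 by 0.49 ± 0.34 (SE), and neither passed at an unadjusted p under 0.05. Of the 8 genes around matriptase, 5 were tested and none passed the adjusted threshold, with a median difference of 0.44. Prss8, which encodes prostasin, a protease that works in a cascade with matriptase, was 23.3 and 9.48 TPM in the controls and 31.7 and 57.0 TPM in the CD95ko-labelled libraries (difference 1.45 ± 0.53 SE; adjusted p = 0.265). Tmprss4, a related membrane protease, was at 0 TPM in control 1 and control 2, 1.42 TPM in CD95ko 1 and 4.46 TPM in CD95ko 2 (limma adjusted p = 0.283). F2rl1, which encodes the receptor PAR2, differed by 0.44 ± 0.49 (SE; adjusted p = 0.708).

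The splicing and transcription factor lists were nearer to the median of all genes. The 7 splicing regulators had a median difference of 0.14. None passed at an unadjusted p under 0.05 in limma, beside 9.25% of all genes tested that were higher and 5.68% that were lower. The groups overlapped for all 7 regulators, while 29.2% of all genes tested had both CD95ko-labelled libraries above both controls. Their smallest p belonged to Qk, at 57.0 and 39.4 TPM in the controls and 41.1 and 27.4 TPM in the CD95ko-labelled libraries (difference -0.49 ± 0.41 SE; adjusted p = 0.607), followed by Rbm47 (0.44 ± 0.55 SE) and Mbnl2 (0.22 ± 0.41 SE). Of 14 epithelial transcription factors, 9 were tested, with a median difference of -0.07, and none passed the adjusted threshold. Foxa1, a luminal pioneer factor, was 1.12 and 0.41 TPM in the controls and 4.95 and 5.18 TPM in the CD95ko-labelled libraries (difference 1.81 ± 0.64 SE; adjusted p = 0.25). Ovol2, the paralog of Ovol1, was 9.63 TPM in control 1, 6.60 TPM in control 2, 10.2 TPM in CD95ko 1 and 30.9 TPM in CD95ko 2 (difference 1.08 ± 0.61 SE; adjusted p = 0.438). Klf5, a factor of proliferating epithelium, was 108 and 120 TPM in the controls and 97.5 and 59.9 TPM in the CD95ko-labelled libraries (difference -0.56 ± 0.36 SE; adjusted p = 0.491).

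**Figure D4:**
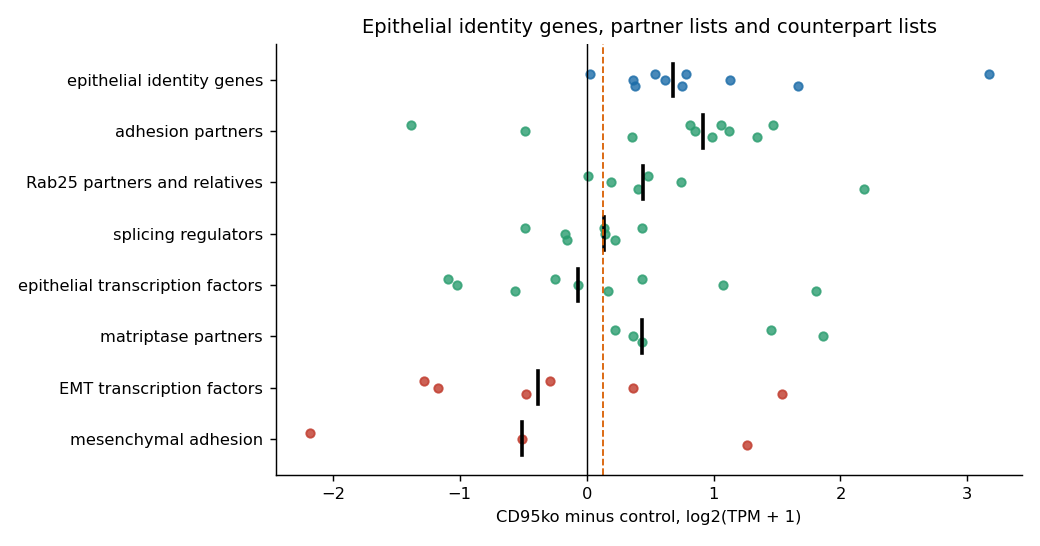
Difference between groups in log2(TPM + 1), CD95ko minus control, for each tested gene (points) of the members, 5 partner lists and 2 counterpart lists, with the list median as a black bar and the median of all genes tested as a dashed line. Medians run from 0.92 for the adhesion partners to -0.51 for the 3 tested mesenchymal adhesion genes.

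Genes of the opposing, mesenchymal side were taken from 2 further lists. Of 9 transcription factors of the epithelial-mesenchymal transition, Zeb1, Snai2 and Twist2 were listed at 0 in all 4 libraries and the other 6 were tested, with a median difference of -0.38 and none past the adjusted threshold. Twist1 was 37.7 and 30.3 TPM in the controls and 12.2 and 17.0 TPM in the CD95ko-labelled libraries (difference -1.17 ± 0.43 SE; limma adjusted p = 0.267). Foxc2 differed by 1.54 ± 0.73 (SE; adjusted p = 0.364) and Zeb2 by -1.28 ± 0.72 (SE; adjusted p = 0.434). Cdh2, the N-cadherin gene, was listed at 0 in all 4 libraries, like Cdh11 and Ncam1. The controls held Vim (vimentin) at 652 and 629 TPM, against 92.9 TPM in CD95ko 1 and 211 TPM in CD95ko 2 (difference -2.18 ± 0.39 SE; limma adjusted p = 0.0847). They held Fn1 (fibronectin) at 347 and 151 TPM, against 329 TPM in CD95ko 1 and 921 TPM in CD95ko 2 (difference 1.26 ± 0.53 SE; adjusted p = 0.313), and S100a4 differed by -0.51 ± 0.63 (SE; adjusted p = 0.742). The ratio of Cdh1 to Vim TPM was 0.244 in control 1 and 0.245 in control 2, against 2.21 in CD95ko 1 and 1.21 in CD95ko 2. In bulk libraries, fewer cells of one state and less RNA per cell cannot be told apart.

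**Figure D5:**
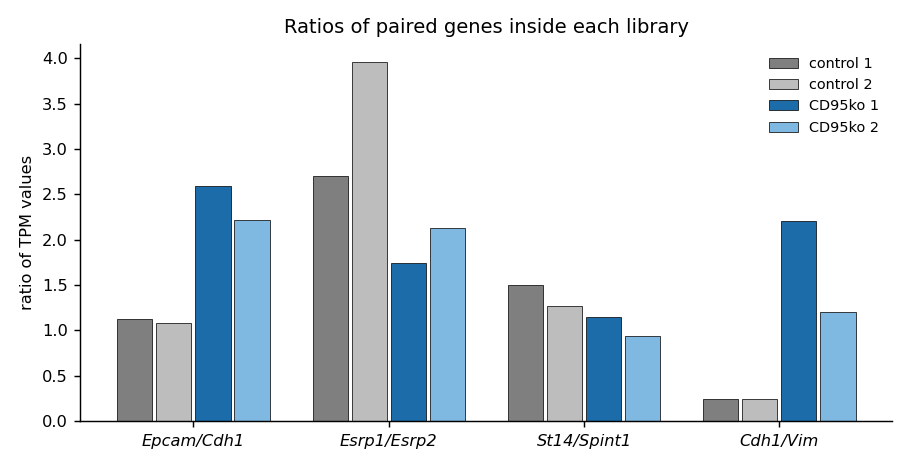
Ratios of TPM values of 4 of the 6 gene pairs computed, inside each library, as bars from 0 with 1 bar a library and no error bars. Epcam/Cdh1 and Cdh1/Vim are higher in both CD95ko-labelled libraries than in both controls, and Esrp1/Esrp2 and St14/Spint1 are lower, while the groups overlapped for the other two pairs, St14/Spint2 and Grhl2/Ovol1, which are not drawn.

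The 5 genes outside the members whose profile over the 4 libraries was most like the mean profile of the members were Acp5, Fam65a, Mdh1, Lmf1 and Nfix, at root mean square distances from 0.024 to 0.038 on the centred log2(TPM + 1) scale. Acp5, which encodes a tartrate-resistant acid phosphatase, was 44.4 TPM in control 1, 35.3 TPM in control 2, 70.1 TPM in CD95ko 1 and 80.0 TPM in CD95ko 2. Mdh1, which encodes cytosolic malate dehydrogenase, was 133 and 103 TPM in the controls and 217 and 235 TPM in the CD95ko-labelled libraries. The likeness rests on 4 libraries and describes these values only.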

How the data were processed

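The deposited tables give 1 TPM value per gene symbol, per the file headers. STAR 2.6.0, RSEM 1.3.0 and the build mm10 are named in the submitters' processing notes, and the annotation is not given in the sources used here. Groups came from the sample titles. Nothing states that libraries of 1 group are separate cultures beyond the clones, so p-values measure no spread beyond that between these libraries. The controls may come from different sources, the unmodified culture and the Cas9 line. The spread between them may then include that difference. With eBayes, the variance behind each p-value and SE is drawn in part from a trend fitted over all genes kept. It is therefore not the spread of that gene alone. Genes with at least 1 TPM in at least 2 libraries were kept (11167), and log2(TPM + 1) was fitted in limma 3.58.1 under R 4.3.3 (two-sided, eBayes with trend, Benjamini-Hochberg over all genes kept, threshold 0.05). The procedure was tested on simulated data. No count test applied, since TPM holds no read number.

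The members, lists and ratios were chosen with earlier results of these data known, so the lists have no test of their own. Named were all members, up to 3 genes per list with the smallest p, and the 5 genes nearest to the members' mean profile. Of these, 1 gene is left out of the text. Alternatives were another pseudocount, other filters, 2 scalings, eBayes without trend or robust, a replicate block and leaving out each library.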

Additional observations from a re-analysis of the deposited data

How the results depend on the processing

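In limma 6 genes passed an adjusted p of 0.05 as reported. A pseudocount of 0.1 gave 0, as did no filter (0), and the number was 0 under quantile normalization, 0 under scaling by median ratios, 0 without trend, 52 with robust eBayes and 55 with a filter on mean TPM of at least 5 (at an unadjusted p under 0.05: 1553, 1636, 1862, 1847, 1531, 1706 and 1516 genes, against 1667 as reported). The cause was not tested. The number of members past it was 1 (Epcam) with robust eBayes and 1 (Epcam) with the filter on mean TPM, and 0 otherwise with all 4 libraries; 1 counterpart gene (Vim) passed in each of the same 2 settings. Leaving out 1 library gave 0 to 1034 genes, 0 to 3 members, 0 to 7 partner genes and 0 to 2 counterpart genes. The highest numbers came without CD95ko 1, where the lone CD95ko-labelled library is assumed to vary like the controls; the members were then Epcam, Rab25 and Elf3. Without CD95ko 2 there were 194 genes and 2 members, Epcam and Rab25.

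The labels do not say that a replicate number pairs a control with a clone, and the numbers were not taken to pair them: the correlation between the deviations of control 1 and CD95ko 1 from their groups was -0.081 over 11167 genes. With the replicate block 2 genes and 0 members passed.

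Of 119 values of single members under an alternative, 108 kept direction and side of the threshold, 7 passed it newly, and 4 changed sign. Esrp1 was -0.063 under quantile normalization, -0.14 under scaling by median ratios and between -0.090 and 0.14 with 1 library left out. Ovol1 was between -0.036 and 1.27 with 1 library left out. The median over the members stayed between 0.45 and 0.79 in every setting run, while that over all genes tested lay between -0.057 and 0.31. Without CD95ko 2 the members were at 0.45 beside 0.19 over all genes. Ovol1 was not tested with the filter on mean TPM. Depth is unknown, so no limit can be given for genes listed at 0.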
